A study of Mus musculus with 7 samples.

Results

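The receptors for interleukin-3 (IL-3), granulocyte-macrophage colony-stimulating factor (GM-CSF) and interleukin-5 (IL-5) are described here through the RNA of their 5 mouse chains. They are the alpha chains Il3ra, Csf2ra and Il5ra and the beta chains Csf2rb and Csf2rb2. The 5 genes were chosen by name, as the rows of the deposited table that carry these symbols. All 5 were found, each in 1 row, among the table's 20464 rows. All 5 passed a filter of at least 1 FPKM in at least 3 libraries, which 9259 genes passed. FPKM counts a gene's fragments relative to its transcript length and to the mapped fragments of the library, so levels of different genes can be set side by side.

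RNA was sequenced from EML cells, a mouse erythroid, myeloid and lymphoid progenitor line, sorted by the surface marker CD34 into CD34-positive cells (3 libraries) and CD34-negative cells (4 libraries). EML is an established line from mouse bone marrow, immortalised with a dominant-negative retinoic acid receptor and kept in stem cell factor, and all groups share that background. The labels give the strain C57BL/6 for all 7 libraries, and only live, Annexin V-negative cells were sorted. They also give a bone marrow tissue and a postnatal age, which do not describe a cell line, and they write CD43 for CD34 in the genotype of the CD34-negative libraries, whose titles read CD34 and were followed. Beside the title's replicate number each library carries a second number. It is 3a for CD34-positive replicate 1 and 3 for CD34-negative replicate 1, taken here as one number 3, 2 for replicate 2 of both groups, and 4 for CD34-positive replicate 3 and CD34-negative replicate 3, with 4a for CD34-negative replicate 4. Whether the replicates are separate cultures is not said in any label. The p-values below therefore rest on library-to-library spread, and that may be technical.

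Each of these receptors is built from an alpha chain, which binds 1 of the cytokines with low affinity, and a beta chain, which carries the signal through the kinase Jak2 to the transcription factors Stat5a and Stat5b. Csf2rb encodes the common beta chain, which serves all of the alpha chains. Csf2rb2 encodes a beta chain, found in mice, that works with Il3ra only. In blood formation IL-3 acts on multipotent and mast cell progenitors, GM-CSF on granulocyte and macrophage progenitors, and IL-5 on eosinophils and some B cells.

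The libraries did not separate by CD34 alone. Cd34 itself, the sorted marker, stood at 147, 256 and 153 FPKM in CD34-positive replicates 1 to 3, against 91.8, 19.3, 2.67 and 6.02 FPKM in CD34-negative replicates 1 to 4. CD34-negative replicate 1 thus held much more Cd34 than the other CD34-negative libraries. Ribosomal protein genes held 3.70% of summed FPKM in the CD34-positive library numbered 4 and 25.7% to 31.4% in the other CD34-positive libraries, against 2.19% and 4.03% in the CD34-negative libraries numbered 4 and 4a and 27.1% to 34.0% in the others. The first principal component (67.1% of the variance) set the 3 libraries numbered 4 and 4a apart from the other 4. The progenitor markers Cd34, Kit and Ly6a were measured in all 7 libraries, and 3 of 6 lymphoid markers (Pax5, Cd3e and Cd8a) and 2 of 4 hepatocyte markers (Alb and Ttr) were listed at 0 in all. The 5 stromal and endothelial markers were not all absent. They summed to 97.2 to 160 FPKM among CD34-positive and 53.0 to 134 FPKM among CD34-negative libraries, nearly all of it Pdgfrb and Pecam1.

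Both beta chains were lower in CD34-positive cells in every comparison of single libraries, Il5ra was higher within every pair of equal number, and Il3ra and Csf2ra had differences near 0 with wide intervals. No chain had an adjusted p under 0.05 (limma). In the 2-group fit neither did any other gene (0% of 9259 higher and 0% lower at an adjusted p of 0.05). Before adjustment p was under 0.05 for 313 higher and 210 lower genes. With the number as a replicate block there were again 0% higher and 0% lower at an adjusted p of 0.05, and before adjustment p was under 0.05 for 1188 higher and 846 lower genes.

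**Figure D1:**
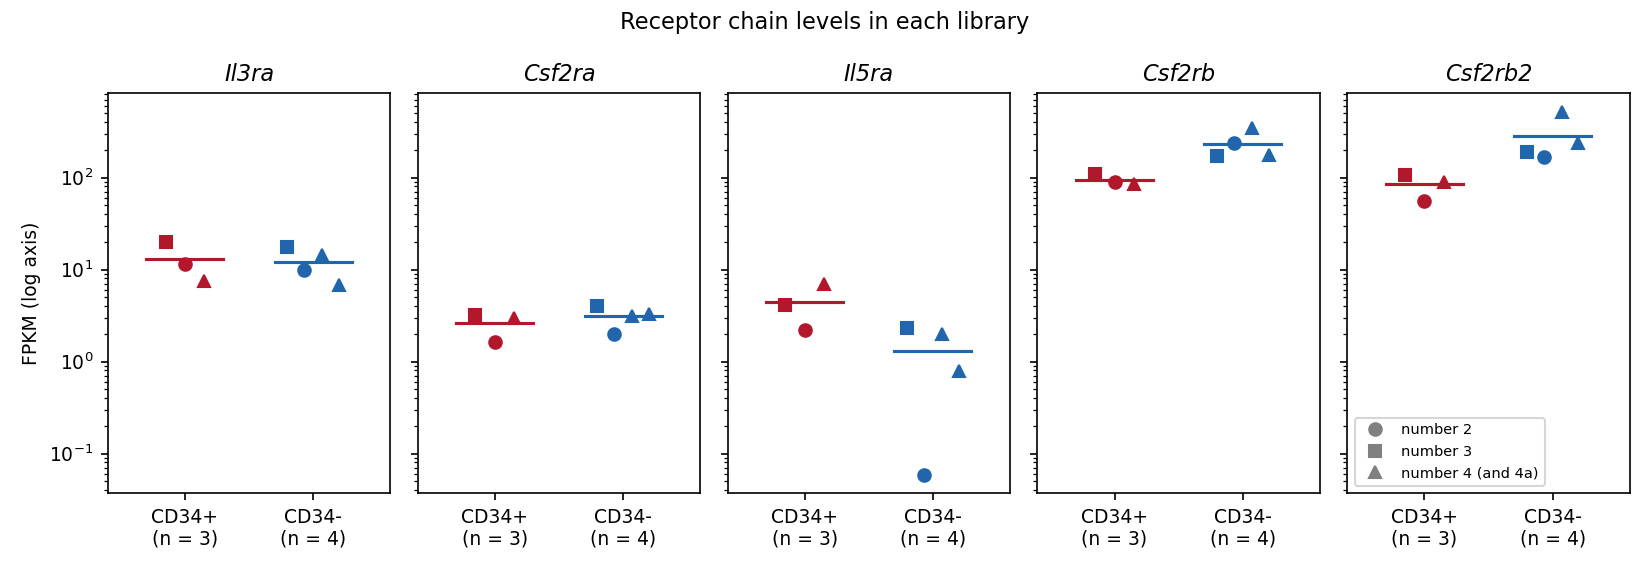
FPKM (log axis) of the 5 receptor chains in each library, CD34-positive cells left and CD34-negative cells right, with the mean of each group as a bar and the marker shape giving the library's number. All 3 CD34-positive libraries lie below all 4 CD34-negative libraries for Csf2rb and Csf2rb2, while the groups overlap for the 3 alpha chains.

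Csf2rb, the common beta chain, stood at 109.8, 89.4 and 85.8 FPKM in CD34-positive replicates 1 to 3, against 171, 236, 348 and 177 FPKM in CD34-negative replicates 1 to 4. The groups did not overlap. The 3 CD34-positive libraries averaged 95.01 ± 12.9 FPKM (SD) and the 4 CD34-negative libraries 233 ± 82.0 FPKM (SD), a ratio of 0.408. On the log2(FPKM + 1) scale the difference, CD34-positive minus CD34-negative, was -1.23 (SE 0.44, 95% interval -2.23 to -0.23), and it missed the threshold in limma (adjusted p = 0.707). With the replicate block it was -1.21 (SE 0.28, adjusted p = 0.0951). A lower level in a sorted population can come from fewer cells of a type or from less RNA per cell, which these bulk libraries cannot tell apart.

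Csf2rb2, the beta chain that serves IL-3 alone, showed the wider spread. It stood at 107, 55.8 and 89.5 FPKM in CD34-positive replicates 1 to 3, against 189.9, 169, 519.8 and 238 FPKM in CD34-negative replicates 1 to 4. Again the groups did not overlap. The 3 CD34-positive libraries averaged 84.1 ± 26.1 FPKM (SD) and the 4 CD34-negative libraries 279 ± 163 FPKM (SD), a ratio of 0.301. The log2 difference was -1.62 (SE 0.53, 95% interval -2.83 to -0.41) and missed the threshold (limma, adjusted p = 0.686; with the block -1.51, SE 0.33, adjusted p = 0.0931). Groups did not overlap for 2 of the 5 chains in the lower direction and 0 in the higher, beside 3.01% and 2.67% of all tested genes. In limma the unadjusted p was under 0.05 in the lower direction for both beta chains, with and without the block, beside 2.27% of tested genes without the block and 9.14% with it.

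The size of the beta chain differences varied with the pair. Csf2rb differed by -1.39 between the libraries numbered 2, by -0.63 between those numbered 3, and by -2.01 and -1.03 between the CD34-positive library numbered 4 and the CD34-negative libraries 4 and 4a. Csf2rb2 differed by -1.58, -0.82, -2.53 and -1.401 in the same order. The pairs numbered 2 and 3, which hold none of the libraries numbered 4, thus had the same sign as the others. Both genes were closest in the pair numbered 3, in which Cd34 was also closest, at 147 FPKM in the CD34-positive and 91.8 FPKM in the CD34-negative library. The largest difference was that with CD34-negative replicate 3, which held 1.97 times the Csf2rb and 2.18 times the Csf2rb2 of CD34-negative replicate 4. All 4 differences had the same sign in 18.9% of tested genes in the lower direction and in 21.4% in the higher. Under that measure Csf2ra, Csf2rb and Csf2rb2 were lower and Il5ra was higher, 4 of 5 chains. The differences are not independent, since those of numbers 4 and 4a share CD34-positive replicate 3.

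**Figure D2:**
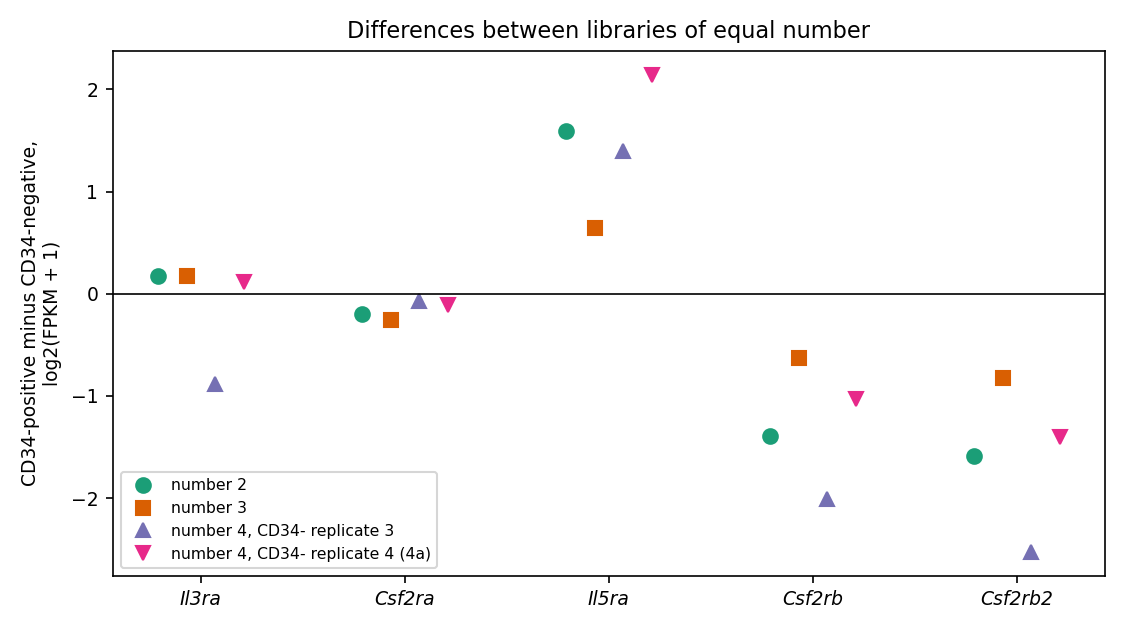
Difference between the CD34-positive and the CD34-negative library of equal number on the log2(FPKM + 1) scale, with 1 point per pair and CD34-positive replicate 3 set against both CD34-negative libraries numbered 4 and 4a. Csf2rb and Csf2rb2 lie below 0 in every pair and Il5ra above 0 in every pair, while Il3ra lies near 0 but for -0.88 in the pair with CD34-negative replicate 3.

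The 2 beta chain genes are neighbours on mouse chromosome 15 and close copies of each other, so fragments from one can be counted for the other. In the GENCODE M21 annotation of GRCm38, Csf2rb2 (ENSMUSG00000071714.7) lies on the minus strand at chr15:78282507-78305721 and Csf2rb (ENSMUSG00000071713.6) on the plus strand at chr15:78325752-78353847. The deposited table itself gives no coordinates. Their coding sequences of 2637 and 2691 bases, taken from the GENCODE transcripts, were identical at 95.2% of the 2631 aligned bases outside gaps. Of all stretches of 50 bases in the Csf2rb2 transcript, 19.0% also occurred in the Csf2rb transcript, and of all stretches of 100 bases 7.20% did. Neither the read length nor the treatment of shared reads is stated in the labels. Levels of the single beta chains are therefore uncertain, and their sum, used below, is less exposed to a split of shared reads between the genes, though not to a loss of such reads. The longest run shared letter for letter covers coding positions 2083 to 2324 of both genes, 242 bases counted from 1 at the A of the start codon, and is printed because reads inside it cannot be assigned to either gene:
Csf2rb and Csf2rb2: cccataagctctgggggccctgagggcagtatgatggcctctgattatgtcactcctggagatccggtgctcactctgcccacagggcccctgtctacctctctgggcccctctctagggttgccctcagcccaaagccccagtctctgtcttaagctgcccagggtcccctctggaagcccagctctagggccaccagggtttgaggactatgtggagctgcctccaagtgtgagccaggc
The stretch of 90 bases in which they differ most is printed beside it, since reads there can tell the genes apart. It runs over coding positions 311 to 400 of Csf2rb2 and 308 to 397 of Csf2rb, and capitals mark the 16 bases that differ:
Csf2rb2: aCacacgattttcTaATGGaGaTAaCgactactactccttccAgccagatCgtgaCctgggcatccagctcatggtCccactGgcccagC
Csf2rb: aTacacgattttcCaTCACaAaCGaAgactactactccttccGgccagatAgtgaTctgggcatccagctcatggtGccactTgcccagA

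The summed FPKM of the 2 beta chains was 217, 145 and 175 in CD34-positive replicates 1 to 3, against 361, 405, 867 and 415 in CD34-negative replicates 1 to 4. Every CD34-positive library lay below every CD34-negative one. The mean sum was 179 ± 35.999 FPKM (SD) over the 3 CD34-positive libraries and 512 ± 238 FPKM (SD) over the 4 CD34-negative libraries. On the log2(sum + 1) scale the difference was -1.43, with p = 0.0571 in an exact two-sided permutation test over the 35 ways to choose 3 of the 7 libraries. That is the smallest p this design allows, so the test could not pass 0.05.

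The balance between the beta chains overlapped between the groups. Csf2rb2 made up 49.4%, 38.4% and 51.0% of the summed beta chain FPKM in CD34-positive replicates 1 to 3, against 52.6%, 41.8%, 59.9% and 57.4% in CD34-negative replicates 1 to 4. The replicate 2 library was the lowest of its group in both. The mean share was 46.3% ± 6.85 (SD, n = 3) in CD34-positive and 52.9% ± 8.03 (SD, n = 4) in CD34-negative cells, a difference of -6.65 percentage points (exact two-sided permutation test, p = 0.286). Within equal numbers the share was lower in the CD34-positive library each time, by -3.33 points in number 2, -3.27 in number 3, and -8.89 and -6.35 against numbers 4 and 4a. With the replicate block, as the mean over 3 pairs with 4 and 4a averaged, the difference was -4.74 points (SD 2.49), with p = 0.25 in an exact sign-flip test, the smallest p that 8 sign patterns allow.

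**Figure D3:**
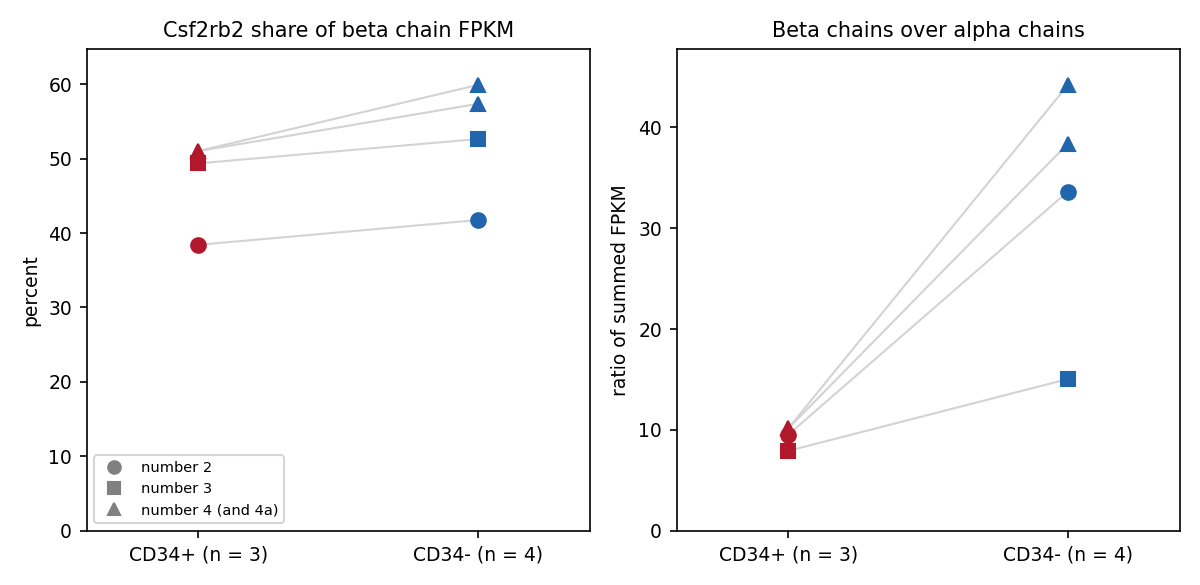
Csf2rb2 as a percent of the summed FPKM of both beta chains (left), and the summed beta chains over the summed alpha chains as a ratio of FPKM (right), in CD34-positive and CD34-negative libraries, with grey lines joining libraries of equal number. The share overlaps between groups (38.4% to 51.0% in CD34-positive, 41.8% to 59.9% in CD34-negative cells), while the ratio does not (7.92 to 10.2 in CD34-positive, 15.04 to 44.2 in CD34-negative cells).

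Il3ra, the alpha chain that binds IL-3, was the most abundant alpha chain in all 7 libraries. In the same annotation its gene (ENSMUSG00000068758.8) lies on the plus strand at chr14:14346275-14356011. It stood at 20.0, 11.4 and 7.425 FPKM in CD34-positive replicates 1 to 3, against 17.6, 9.98, 14.5 and 6.76 FPKM in CD34-negative replicates 1 to 4. The groups overlapped over nearly their whole range. The 3 CD34-positive libraries averaged 13.0 ± 6.44 FPKM (SD) and the 4 CD34-negative libraries 12.2 ± 4.81 FPKM (SD). The log2 difference was 0.05 (SE 0.43, 95% interval -0.92 to 1.02; limma, adjusted p = 0.9999), and its sign turned with the block (-0.047), with quantile normalization (-0.033) and with median-ratio scaling (-0.044). Within equal numbers it was 0.18, 0.17 and 0.12 in numbers 2, 3 and 4a and -0.88 in number 4. The interval is wide enough to hold a difference of nearly 1 on the log2 scale in either direction.

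Csf2ra, the alpha chain of the GM-CSF receptor, was low in every library. Its gene (ENSMUSG00000059326.7) lies on the minus strand at chr19:61223957-61228429. It stood at 3.21, 1.62 and 2.95 FPKM in CD34-positive replicates 1 to 3, against 4.02, 2.002, 3.14 and 3.26 FPKM in CD34-negative replicates 1 to 4. The 3 CD34-positive libraries averaged 2.59 ± 0.85 FPKM (SD) and the 4 CD34-negative libraries 3.10 ± 0.83 FPKM (SD). Each CD34-positive library was below its partner of equal number, by -0.19, -0.26, -0.07 and -0.11 on the log2 scale for numbers 2, 3, 4 and 4a. The groups overlapped, and the difference of -0.20 (SE 0.30, 95% interval -0.87 to 0.48) missed the threshold (limma, adjusted p = 0.9999; with the block -0.17, SE 0.14, adjusted p = 0.502).

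Il5ra, the alpha chain that binds IL-5, was the chain with the higher values in CD34-positive cells. Its gene (ENSMUSG00000005364.11) lies on the minus strand at chr6:106710357-106749037. It stood at 4.16, 2.20 and 6.89 FPKM in CD34-positive replicates 1 to 3, against 2.31, 0.0585, 1.99 and 0.784 FPKM in CD34-negative replicates 1 to 4. The groups overlapped by a narrow margin, since CD34-positive replicate 2 lay below CD34-negative replicate 1. The 3 CD34-positive libraries averaged 4.42 ± 2.35 FPKM (SD) and the 4 CD34-negative libraries 1.29 ± 1.05 FPKM (SD), a ratio of 3.43. The log2 difference was 1.29 (SE 0.47, 95% interval 0.21 to 2.37) and missed the threshold (limma, adjusted p = 0.726; with the block 1.38, SE 0.28, adjusted p = 0.0931). The log2(FPKM + 1) scale understates changes at such low values, and with a pseudocount of 0.1 the difference was 2.16 (SE 0.95; limma, adjusted p = 0.924). Its unadjusted p was under 0.05 in both fits, beside 3.38% of all tested genes in the higher direction without the block and 12.8% with it. Within equal numbers the differences were 1.597, 0.64, 1.399 and 2.15 for numbers 2, 3, 4 and 4a, and the smallest was again that of number 3.

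The order of levels held from library to library with 2 exceptions. The beta chains ranked above Il3ra, and Il3ra above Csf2ra and Il5ra, in all 7 libraries. Csf2rb2 exceeded Csf2rb in CD34-positive replicate 3 and in CD34-negative replicates 1, 3 and 4, and the reverse held in the other libraries. A difference in level between these neighbours was not tested. Il5ra exceeded Csf2ra in all 3 CD34-positive libraries, while Csf2ra exceeded Il5ra in all 4 CD34-negative libraries. Among the tested genes of its library, Csf2rb lay between percentiles 89.1 and 99.2, Csf2rb2 between 83.1 and 99.6, Il3ra between 34.2 and 59.5, Csf2ra between 9.29 and 18.3, and Il5ra between 0.454 and 34.3.

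Since a receptor needs both kinds of chain, the summed beta chains were set over the summed alpha chains. The ratio was 7.92, 9.53 and 10.2 in CD34-positive replicates 1 to 3, against 15.04, 33.6, 44.2 and 38.4 in CD34-negative replicates 1 to 4. The groups did not overlap, and CD34-negative replicate 1, the library with much Cd34, was the closest to the CD34-positive ones. The log2 ratio differed by -1.73 (exact two-sided permutation test, p = 0.0571, the smallest of 35 splits), and by -1.82, -0.93, -2.12 and -1.92 for numbers 2, 3, 4 and 4a. The summed alpha chains alone overlapped, at 15.2 to 27.4 FPKM among CD34-positive and 10.8 to 24.0 FPKM among CD34-negative libraries. The beta sum is the numerator of the ratio, so the ratio and its p are not independent of the result for that sum. The ratio describes RNA, not chains at the cell surface.

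Several markers of blood lineages also differed between CD34-positive and CD34-negative libraries, though not in step with the beta chains from library to library. The 5 erythroid markers Gata1, Klf1, Epor, Car1 and Ermap summed to 7.59 to 52.6 FPKM among CD34-positive and 98.1 to 628 FPKM among CD34-negative libraries, and all 5 were lower in all 4 differences within numbers, as were 18.9% of all tested genes. Of 7 tested mast cell and basophil markers 4 were lower in all 4 differences, and the sum of the 9 in the list ran from 2209 to 3319 FPKM among CD34-positive and from 1766 to 11410 FPKM among CD34-negative libraries. CD34-negative replicate 3, the library with the most of both beta chains, held that highest sum but the lowest erythroid sum of its group, 98.1 FPKM. CD34-negative replicate 4, next by summed beta chains (415 FPKM), held the lowest mast cell sum of all libraries, 1766 FPKM. The mast cell chain Ms4a2 of the IgE receptor stood at 3.87, 1.86 and 0.642 FPKM in CD34-positive replicates 1 to 3, against 13.1, 17.8, 58.4 and 19.8 FPKM in CD34-negative replicates 1 to 4. The mast cell list was not uniform. The carboxypeptidase gene Cpa3, the largest part of its sum in the CD34-positive libraries, stood at 1936, 2219 and 3044 FPKM in CD34-positive replicates 1 to 3, against 1655, 451, 3134 and 624 FPKM in CD34-negative replicates 1 to 4, higher in 3 of the 4 differences. Il1rl1, the receptor for IL-33, was higher in the CD34-positive library of number 2 (20.3 FPKM in CD34-positive, 15.01 FPKM in CD34-negative cells) and lower in the other pairs. Of 6 neutrophil and monocyte markers with a row, 3 were tested, and these 3 were higher in all 4 differences, as were 21.4% of all tested genes. The sum of the 6 is nearly all Mpo and Ctsg, enzymes of granulocyte precursors, and ran from 1234.5 to 2355 FPKM among CD34-positive and from 124 to 1308 FPKM among CD34-negative libraries. Csf1r and Csf3r, which define those lineages, were below 1 FPKM in every library and Elane was listed at 0 in all CD34-positive libraries. Of the eosinophil list, Siglecf was not among the rows used. Epx, Prg2 and Ccr3 summed to 0.0233 to 0.39 FPKM among CD34-positive and 0 to 0.538 FPKM among CD34-negative libraries. These 3 genes were at or near 0, and none passed the filter. The part of these cell types in the beta chain and Il5ra values was not tested.

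None of the 3 ligands was measured above the filter. Il3 was listed at 0 in all 7 libraries. Csf2, which encodes GM-CSF, was listed at 0 except for 0.141 FPKM in CD34-negative replicate 2, and Il5 did not exceed 0.0499 FPKM among CD34-positive and 0.0959 FPKM among CD34-negative libraries.

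Of the 15 proximal signalling genes all were tested and 0 passed after adjustment in limma. An unadjusted p under 0.05 was found for 1 higher and 0 lower, beside 3.38% and 2.27% of all tested genes, and with the block for 5 higher and 0 lower, beside 12.8% and 9.14%. The higher gene was Stat3, a transcription factor of the IL-6 family of receptors, at 86.0, 60.8 and 68.3 FPKM in CD34-positive replicates 1 to 3, against 61.2, 14.8, 20.4 and 19.4 FPKM in CD34-negative replicates 1 to 4. Its groups overlapped by less than 1 FPKM, with a log2 difference of 1.49 (SE 0.49; limma, adjusted p = 0.686, or 0.0931 with the block). Pik3cd, the leukocyte catalytic subunit of phosphoinositide 3-kinase, had means of 77.1 ± 16.8 FPKM among CD34-positive libraries and 44.8 ± 17.0 FPKM among CD34-negative libraries (SD, n = 3 and 4; limma, adjusted p = 0.980, or 0.0955 with the block). The kinases Lyn (25.9 FPKM in CD34-positive, 39.5 FPKM in CD34-negative cells) and Jak1 (62.1 FPKM in CD34-positive, 44.5 FPKM in CD34-negative cells) had overlapping groups. Within equal numbers Lyn was lower and Jak1 higher in all 4 differences. Over the list 5 genes were higher and 5 lower in all 4, beside 21.4% and 18.9% of all tested genes. Jak2, which binds the beta chains, had means of 17.2 ± 7.55 FPKM among CD34-positive libraries and 24.0 ± 11.7 FPKM among CD34-negative libraries (SD, n = 3 and 4). The STAT genes that act below it differed by less than their spread. Stat5a stood at 103 ± 29.0 FPKM in CD34-positive cells against 92.5 ± 34.8 FPKM in CD34-negative cells, and Stat5b at 47.5 ± 13.0 FPKM in CD34-positive cells against 42.8 ± 7.87 FPKM in CD34-negative cells. Jak2, Stat5a and Stat5b were added to the genes named by rule because they are the direct partners of the beta chains.

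Of 10 tested negative regulators, 0 passed after adjustment in limma. An unadjusted p under 0.05 was found for 1 higher and 0 lower (3.38% and 2.27% of all tested genes), and with the block for 2 higher and 0 lower (12.8% and 9.14%). Socs3, a feedback inhibitor of cytokine signalling, stood at 28.7, 5.14 and 30.8 FPKM in CD34-positive replicates 1 to 3, against 18.7, 0.872, 2.62 and 1.28 FPKM in CD34-negative replicates 1 to 4 (limma, log2 difference 2.10, SE 0.89, adjusted p = 0.853). Both groups spread widely and overlapped. Cish, a feedback inhibitor that STAT5 induces, had means of 3.18 ± 0.61 FPKM among CD34-positive libraries and 6.39 ± 4.11 FPKM among CD34-negative libraries (SD, n = 3 and 4), with 12.3 FPKM in CD34-negative replicate 3 alone. The feedback inhibitor Socs1 (2.37 FPKM in CD34-positive, 1.70 FPKM in CD34-negative cells) and the phosphatase Ptpn6 (111 FPKM in CD34-positive, 89.4 FPKM in CD34-negative cells) overlapped too.

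Among 12 tested targets of STAT5 and survival genes, 0 passed after adjustment in limma. The unadjusted p was under 0.05 for 3 higher and 0 lower, against 3.38% and 2.27% of all tested genes, and with the block for 5 higher and 1 lower, against 12.8% and 9.14%. Those 3, Id1, Pim2 and Ccnd1, were also the ones whose groups did not overlap, as was so for 2.67% of all tested genes in the higher direction. The survival kinase Pim2 stood at 105, 111 and 119.9 FPKM in CD34-positive replicates 1 to 3, against 100.2, 24.0, 20.8 and 12.7 FPKM in CD34-negative replicates 1 to 4 (log2 difference 1.94, SE 0.63; limma, adjusted p = 0.686). CD34-negative replicate 1 again lay next to the CD34-positive libraries. Id1, an inhibitor of basic helix-loop-helix factors, had a mean of 3.02 FPKM in CD34-positive cells against 0.888 FPKM in CD34-negative cells. The cyclin Ccnd1 had a mean of 21.5 FPKM in CD34-positive cells against 9.31 FPKM in CD34-negative cells. The kinase Pim1 (27.5 FPKM in CD34-positive, 12.9 FPKM in CD34-negative cells) had overlapping groups. These 4 genes were named for their small p and do not stand for the list. Bcl2l1, next by p, had a mean of 32.5 FPKM in CD34-positive cells against 15.5 FPKM in CD34-negative cells. Its groups overlapped, and it was higher in all 4 differences within numbers. The transcription factor gene Myc, after Bcl2l1 by p, had a mean of 46.9 FPKM in CD34-positive cells against 82.0 FPKM in CD34-negative cells. Myc was lower in all 4 differences within numbers, and the means of Ccnd2, Fos and Egr1 were also lower in CD34-positive cells. Over the list, 6 genes were higher and 1 was lower in all 4 differences, beside 21.4% and 18.9% of all tested genes. The median log2 difference was 0.35 over the 12 targets, 0.13 over the proximal genes and 0.04 over the negative regulators, beside 0.09 over all tested genes.

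Other cytokine receptor chains were found in both directions. Of 12 tested, 0 passed after adjustment in limma. Before adjustment p was under 0.05 for 2 higher and 2 lower (3.38% and 2.27% of all tested genes), and with the block for 4 higher and 2 lower (12.8% and 9.14%). In all 4 differences within numbers 5 were higher and 2 lower (21.4% and 18.9% of all tested genes), and the median log2 difference was 0.57 beside 0.09 over all tested genes. Epor, the erythropoietin receptor and also a gene of the erythroid list, stood at 6.88, 3.67 and 1.75 FPKM in CD34-positive replicates 1 to 3, against 15.1, 44.4, 9.10 and 16.7 FPKM in CD34-negative replicates 1 to 4. Its groups did not overlap, with a log2 difference of -2.03 (SE 0.55; limma, adjusted p = 0.647, or 0.0931 with the block). The interferon receptor chain Ifngr1 (13.2 FPKM in CD34-positive, 29.2 FPKM in CD34-negative cells) was lower without overlap. The shared chain Il2rg of the IL-2 family (96.7 FPKM in CD34-positive, 48.7 FPKM in CD34-negative cells) was higher without overlap. Over the list, groups did not overlap for 1 higher and 2 lower genes, beside 2.67% and 3.01% of all tested genes. Il6st, the shared signalling chain of the IL-6 family, had a mean of 9.59 FPKM in CD34-positive cells against 2.73 FPKM in CD34-negative cells, with overlapping groups.

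Across the 7 libraries the beta chains ran together, and the other pairs of chains correlated less closely. On the log2(FPKM + 1) scale Pearson's r was 0.926 between Csf2rb and Csf2rb2, -0.628 between Il5ra and Csf2rb, -0.381 between Il5ra and Csf2rb2, and 0.0942 to 0.516 among the other pairs. These are descriptions over 7 libraries that share the 2 groups and the 3 numbers, and the beta chains also share sequence. Of 9258 other tested genes the most alike to Csf2rb were Fndc5 (r = 0.989), B4galt1 (0.984) and Arap3 (0.982). Most alike to Csf2rb2 were Hist1h1c (0.988), Eaf1 (0.976) and Itgae (0.972). Itgae, the alpha chain of an integrin of mucosal lymphocytes and mast cells, stood at 3.95, 2.77 and 4.91 FPKM in CD34-positive replicates 1 to 3, against 9.85, 12.5, 68.6 and 20.0 FPKM in CD34-negative replicates 1 to 4, with CD34-negative replicate 3 the highest as for both beta chains. Il5ra was most like Tnfrsf26 (0.994), Ddx58 (0.991) and Parp8 (0.984), which like Il5ra were highest in CD34-positive replicate 3 and lowest in CD34-negative replicate 2. Il3ra was most like Snrk (0.990), Glud1 (0.983) and Mgrn1 (0.977), and Csf2ra like Wdr41 (0.986), Mrpl36 (0.981) and Tcp11l2 (0.979). With so few libraries and so many genes, values of this size are found for each chain.

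RefSeq promoter sequences on GRCm38.p6, from 250 bases before to 50 after the start of transcription, were matched for 4 of the 5 chains, Csf2rb being the one not matched. The promoters of Csf2rb2 and Il5ra are printed because these genes had opposite directions within every pair of equal number. Both strands were searched for GATA, for GAGGAA (the core that the factor PU.1 binds) and for TTCNNNGAA (the form STAT factors bind), motifs that do not overlap in these 2 promoters. Capitals mark the matches. Csf2rb2 lies at chr15:78305672-78305971 on the minus strand and Il5ra at chr6:106748988-106749287 on the minus strand:
Csf2rb2: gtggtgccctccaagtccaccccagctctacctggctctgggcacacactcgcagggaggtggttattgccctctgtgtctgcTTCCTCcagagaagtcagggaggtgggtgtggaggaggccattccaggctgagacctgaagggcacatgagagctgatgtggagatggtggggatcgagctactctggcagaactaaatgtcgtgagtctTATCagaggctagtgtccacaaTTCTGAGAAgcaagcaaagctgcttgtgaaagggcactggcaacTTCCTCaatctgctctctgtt
Il5ra: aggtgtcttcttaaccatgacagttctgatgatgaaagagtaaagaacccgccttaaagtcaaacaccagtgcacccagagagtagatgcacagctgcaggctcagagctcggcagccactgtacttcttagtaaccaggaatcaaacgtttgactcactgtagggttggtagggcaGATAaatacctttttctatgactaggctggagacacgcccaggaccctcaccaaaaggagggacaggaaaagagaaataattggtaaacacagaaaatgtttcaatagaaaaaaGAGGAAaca
Each held 1 GATA, as 57.9% of the 32851 promoters of that length did. GAGGAA occurred at 2 places in Csf2rb2, both on the opposite strand, and at 1 in Il5ra, and 28.3% of all promoters held it. TTCNNNGAA occurred at 1 place in Csf2rb2 and at 0 in Il5ra, and 8.30% of all promoters held it. Csf2ra was also lower within every pair, and its promoter, not printed, held 0 GATA, 2 GAGGAA and 0 TTCNNNGAA. That of Il3ra, not printed either, held 1 GATA, 0 GAGGAA and 0 TTCNNNGAA. A match describes letters in this window and is not a measured binding site.

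**Figure D4:**
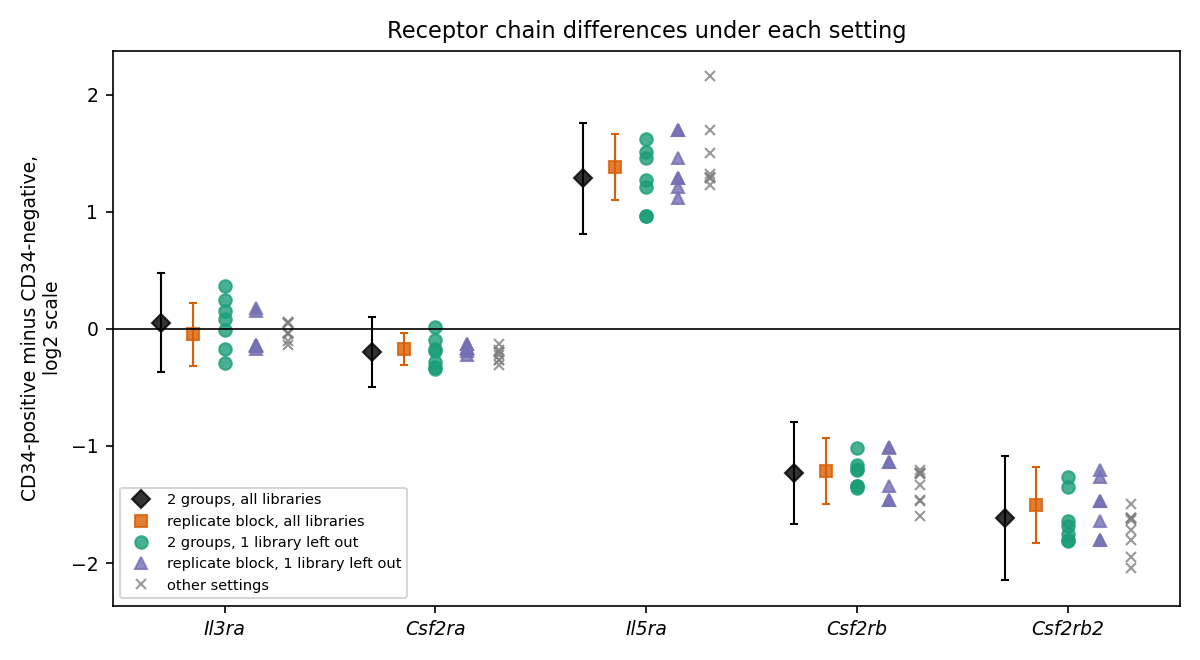
Difference between CD34-positive and CD34-negative cells on the log2 scale for each receptor chain, in the 2-group fit and with the replicate block (bars, SE), with 1 library left out of either, and under the other settings. Csf2rb (-1.595 to -1.01) and Csf2rb2 (-2.04 to -1.20) stay below 0 and Il5ra (0.96 to 2.16) above 0 in all of them, while Il3ra lies on both sides of 0.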

How the data were processed

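RNA of EML cells was sequenced in 3 CD34-positive and 4 CD34-negative libraries. The deposited values are FPKM. The submitters' processing notes list TopHat2, TopHat and Cuffdiff and the genome builds mm9 and mm10, with no version or role for any of them. Annotation and strand are not given. Each of the 7 value columns matched 1 library. Of 20464 rows, 322 rows of 105 repeated symbols were left out, none of them a receptor chain.

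The fit used limma 3.58.1 in R 4.3.3 on log2(FPKM + 1) of the 9259 genes that reached 1 FPKM in 3 or more libraries, with a mean-variance trend. Tests were two-sided, p-values were adjusted by Benjamini-Hochberg over these genes, the threshold was 0.05, and standard errors are moderated. Single values were compared by exact permutation. Sequences were compared with Biopython 1.88.

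The number of fragments is unknown, so no count model or counting interval was used. Values under 0.3 FPKM stood in 1 ratio, within 0.5%, in 24.6% of 793 genes between the replicate 1 libraries (CD34-negative over CD34-positive, 0.572), too few to recover whole reads.

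The replicate block is the second library number in the labels. Deviations from the group means correlated at 0.703 (number 3), 0.915 (number 2), 0.823 (4) and 0.846 (4a), and at -0.858 to 0.372 between unlike numbers. Equal numbers were therefore treated as pairs in the replicate block, the sign-flip test and the differences within numbers. The 2-group fit and the permutation tests over 35 splits did not use the pairs, and took CD34-negative replicates 3 and 4 as separate libraries. The libraries numbered 4 also differ in kind from the others. The chains, gene lists and tests were chosen with earlier results of these data known. Named genes are the 5 chains, up to 4 genes per role list with the smallest p, the 3 most alike genes per chain and Cd34. Other markers and partners were named after their values were seen. Another marker gene chosen at the start is not reported here.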

Additional observations from a re-analysis of the deposited data

How the results depend on the processing

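Each difference was recomputed with the replicate block, another pseudocount, filters or scaling, robust estimation, CD34-negative replicates 3 and 4 averaged, and each library left out, with and without the block. A fit without both replicate 1 libraries was added after seeing the data. With a filter of 5 FPKM, Csf2ra and Il5ra were not tested. Csf2rb2 (-2.04 to -1.20), Csf2rb (-1.595 to -1.01) and Il5ra (0.96 to 2.16) kept their direction in every setting run. Il3ra turned to -0.047 with the replicate block, -0.033 with quantile normalization, -0.044 with median-ratio scaling, -0.038 with the averaged replicates, and, without both replicate 1 libraries, -0.10 (-0.14 with the block). It ran from -0.29 to 0.37 with 1 library left out and from -0.18 to 0.17 when the block was kept. Csf2ra ran from -0.34 to 0.0142 with 1 library left out, above 0 only without CD34-positive replicate 2.

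With the replicate block alone no chain passed. Il5ra passed in limma with the block without CD34-positive replicate 1 (adjusted p = 0.0360), without CD34-negative replicate 1 (0.0365) and without both (adjusted p = 0.0350). The difference was 1.70 in all of these, since the block leaves a lone library of number 3 without a partner. Csf2rb (-1.02, adjusted p = 0.0493) and Csf2rb2 (-1.27, adjusted p = 0.0436) passed with the block without CD34-negative replicate 3. With 1 library left out and the block, Il5ra ran from 1.12 to 1.70, Csf2rb from -1.46 to -1.01 and Csf2rb2 from -1.80 to -1.20. Without the block they ran from 0.96 to 1.62, -1.36 to -1.02 and -1.81 to -1.27, and none passed. Over the alternatives run, adjusted p ranged from 0.0350 to 0.999998 for Il5ra, 0.0493 to 0.999998 for Csf2rb and 0.0436 to 0.99997 for Csf2rb2.

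Over all genes, without CD34-negative replicate 1, 7 passed as higher and 3 as lower, and leaving out any other library gave 0. With the block, 230 higher and 81 lower genes passed without CD34-positive replicate 1, 231 and 81 with CD34-negative replicate 1 left out, 233 and 81 without both, 32 and 125 without CD34-negative replicate 3, and 1 and 0 when CD34-positive replicate 3 was left out. Of the role lists, 4 higher and 1 lower passed in each block fit without replicate 1 libraries, and 0 and 1 in the block fit without CD34-negative replicate 3. Without the block, 0 passed when the same libraries were left out. The Csf2rb2 share differed by -10.4 to -2.72 points with 1 library left out. The cause of the other changes was not tested. The unknown number of fragments limits Il5ra and Csf2ra most, which have the lowest levels.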
